A study of Mus musculus with 40 samples.

Results

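The 10 genes described here, Pecam1, Vwf, Tek, Tie1, Kdr, Flt1, Eng, Emcn, Sox17 and Sox18, were chosen by name as genes that mark endothelial cells. Each has 1 row in both deposited count tables, which hold 55335 genes for aorta and 55382 for kidney, and all 10 passed the filter on low counts in both tissues. RNA came from C57BL/6 mice in which a loxP-flanked fragment of Egfr, comprising exon 1, was deleted by Tek-cre (EC-EGFR-KO, here KO). The other RNA came from mice that carried Tek-cre but no loxP sites (EC-EGFR-WT, here WT), so Tek-cre was present in all groups. Tek-cre places Cre recombinase under the Tek (Tie2) promoter, which is active in endothelial cells and is known to be active in blood-forming cells too. Mice of both genotypes were fed a standard fat diet (SFD, named SD in the labels, 10% of energy from fat) or a high fat diet (HFD, 60%) over 18 weeks, starting when 6 weeks old. There were 5 libraries per genotype, diet and tissue, and 40 in all. The sources used here do not say whether the aortas and kidneys came from the same mice. RNA was taken from kidney tissue and from aorta freed of adjacent tissue, and not from isolated endothelial cells. The sources used here do not say which part of the kidney was used. A lower level of an endothelial gene could thus stem from fewer endothelial cells or from less of its RNA per cell. These cannot be told apart.

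Endothelial cells line all blood vessels, and a small set of transcription factors of the ETS and SOXF families keeps their gene programme active. The genes of that programme encode junction and adhesion proteins, the coagulation factor that endothelium stores and secretes, the receptors for angiopoietins and for vascular endothelial growth factors (VEGF), and co-receptors of the BMP pathway. The makeup of the programme differs between vessel beds: large vessels are known for high von Willebrand factor, and fenestrated capillaries such as those of the kidney for high VEGF receptor 2 and endomucin.

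The upstream sequences of 4 receptor genes are shown because Tek lends its promoter to the Cre transgene, Kdr and Flt1 went the opposite way to Tek between the tissues, and Eng came closest to being called for diet. Each is the 250 bases before the transcription start in RefSeq, 5′ to 3′ along the strand of the gene. Capitals mark the letters GGAAG or their reverse complement CTTCC, searched for the ETS motif, and ACAAT or ATTGT, searched for the SOX motif. Other forms of these motifs, also shorter ones, were not searched.
Tek (GRCm38.p6, chr4:94739039-94739288, plus strand): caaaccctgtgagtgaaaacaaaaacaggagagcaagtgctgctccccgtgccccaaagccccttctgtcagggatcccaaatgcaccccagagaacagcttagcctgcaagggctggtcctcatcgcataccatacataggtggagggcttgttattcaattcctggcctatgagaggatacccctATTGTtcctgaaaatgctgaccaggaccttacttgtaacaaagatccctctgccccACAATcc
Kdr (GRCm38.p6, chr5:75978456-75978705, minus strand): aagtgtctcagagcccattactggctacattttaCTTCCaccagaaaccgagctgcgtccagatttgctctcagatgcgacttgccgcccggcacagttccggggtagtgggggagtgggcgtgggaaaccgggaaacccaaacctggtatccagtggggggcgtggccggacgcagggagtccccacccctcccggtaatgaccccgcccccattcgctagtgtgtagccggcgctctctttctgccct
Flt1 (GRCm38.p6, chr5:147726012-147726261, minus strand): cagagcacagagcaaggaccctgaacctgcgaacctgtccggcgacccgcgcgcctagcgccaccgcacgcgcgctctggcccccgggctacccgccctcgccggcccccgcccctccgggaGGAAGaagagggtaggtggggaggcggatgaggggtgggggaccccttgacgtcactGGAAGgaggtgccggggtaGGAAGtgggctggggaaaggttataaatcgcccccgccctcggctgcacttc
Eng (GRCm38.p6, chr2:32646345-32646594, plus strand): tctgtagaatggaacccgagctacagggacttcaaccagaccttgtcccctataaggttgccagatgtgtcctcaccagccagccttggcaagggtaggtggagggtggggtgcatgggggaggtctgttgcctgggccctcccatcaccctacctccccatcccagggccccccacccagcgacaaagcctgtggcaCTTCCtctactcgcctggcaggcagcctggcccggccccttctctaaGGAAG
By these letters the Tek window held 2 SOX matches and no ETS match, the Kdr window 1 ETS match, the Flt1 window 3 and the Eng window 2. A window without a match may still hold another form of the motif. RefSeq windows were available for 6 of the 10 genes, the other 2 being Tie1 with 6 ETS matches and Emcn with 2 ETS matches and 1 SOX match. An ETS match was thus present in 5 of 6 windows and a SOX match in 2 of 6. Of all 32851 windows of the same length, 64.1% and 27.7% held one. Matches of 5 letters are a description of the sequence and not evidence of binding.

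The libraries held 17520161 to 36452741 counts in aorta and 19643033 to 48833447 in kidney. In aorta, R-1 (WT SFD) and R-12 (KO SFD) differed by less than the sampling noise, with a median chi-square per gene of 0.0266 against 1.60 for the next closest pair. In kidney, a12 (WT HFD) and a1 (KO HFD) did so too, with 0.0253 against 1.62. Each pair carries opposite genotype labels, so 1 library of each may be mislabelled or a second copy of the other. It is not known which, and both were kept under their labels, so that an n of 5 in these groups may count 4 independent samples. The main results are also given without each pair. Egfr, which many cells of both organs express, was not called between the genotypes. Its log2 fold changes averaged over both diets were 0.14 (standard error 0.10, edgeR adjusted p = 0.729) in aorta and -0.01 (standard error 0.12, edgeR adjusted p = 0.99) in kidney. Counts per gene do not single out exon 1, the part deleted. The paper checked the knockout by PCR for the excision in lung or aorta and by qRT-PCR of Egfr RNA in lung. The tables hold 0 counts for all genes on chromosomes 9, X, Y and MT and for Cdh5, so that this defining endothelial gene could not be examined. The tissue labels matched their markers, since smooth muscle markers summed to 26975 FPM or more in every aorta library and proximal tubule markers to 1.69 FPM or less there, while the latter reached at least 6457 FPM in every kidney library. FPM stands for CPM on the TMM-scaled library size, and FPKM for FPM per kilobase of exon. Both were scaled within each tissue, whereas fold and log2 differences between the tissues come from 1 joint fit. Ratios of the FPKM below therefore differ somewhat from these folds.

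The makeup of the 10 genes differed strongly between aorta and kidney. Gene positions are those of the GRCm38 build in the GENCODE annotation. Pecam1 (ENSMUSG00000020717, chromosome 11, 106654217 to 106750628), the adhesion molecule CD31 of endothelial junctions, led in aorta with 93.5 ± 37.3 FPKM (SD, n = 20) and reached 9.08 ± 1.97 FPKM in kidney. It was 8.85-fold higher in aorta, a log2 difference of kidney minus aorta of -3.15 (standard error 0.17, edgeR adjusted p = 4.83e-19). Vwf (ENSMUSG00000001930, chromosome 6, 125546774 to 125686679), which encodes von Willebrand factor, fell from 19.7 ± 8.72 FPKM in aorta to 0.149 ± 0.0388 FPKM in kidney. This 113-fold difference, a log2 difference of -6.82 (standard error 0.25, edgeR adjusted p = 1.65e-24), was the largest of the 10.

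The angiopoietin receptor Tek (ENSMUSG00000006386, chromosome 4, 94739289 to 94874976) and its partner Tie1 (ENSMUSG00000033191, chromosome 4, 118471191 to 118490061) were moderately higher in aorta. Tek had 16.4 ± 8.31 FPKM in aorta and 7.23 ± 1.59 FPKM in kidney, a log2 difference of -0.95 (standard error 0.20, edgeR adjusted p = 6.85e-05). Tie1 had 14.7 ± 5.94 FPKM in aorta and 8.01 ± 1.51 FPKM in kidney, a log2 difference of -0.66 (standard error 0.15, edgeR adjusted p = 0.000139). For both receptors the tissues overlapped, because several aorta libraries fell into the kidney range.

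The VEGF receptors went the other way. Kdr (ENSMUSG00000062960, chromosome 5, 75932827 to 75978458), the main signalling receptor for VEGF-A, was the lowest of the 10 in aorta with 0.274 ± 0.130 FPKM, resting on 16 to 113 counts per library, and reached 7.87 ± 2.03 FPKM in kidney. It was 33.1-fold higher in kidney, a log2 difference of 5.05 (standard error 0.20, edgeR adjusted p = 1.95e-23). Flt1 (ENSMUSG00000029648, chromosome 5, 147561604 to 147726011), a high-affinity receptor that also captures VEGF as a soluble form, was 2.53-fold higher in kidney, a log2 difference of 1.34 (standard error 0.13, edgeR adjusted p = 1.60e-11).

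Emcn (ENSMUSG00000054690, chromosome 3, 137341067 to 137432185), the sialomucin endomucin of veins and capillaries, was 9.83-fold higher in kidney, with 10.3 ± 1.97 FPKM against 1.23 ± 0.607 FPKM and a log2 difference of 3.30 (standard error 0.18, edgeR adjusted p = 6.61e-19). The TGF-beta and BMP co-receptor Eng (ENSMUSG00000026814, chromosome 2, 32646595 to 32682669) was the most even gene, with 30.3 ± 5.22 FPKM in aorta and 24.6 ± 4.93 FPKM in kidney. On the scale of the joint fit Eng had 114 FPM in aorta and 107 FPM in kidney. Its log2 difference was -0.11 (standard error 0.08, edgeR adjusted p = 0.231), with a 95% interval of -0.27 to 0.06. The SOXF transcription factors Sox17 (ENSMUSG00000025902, chromosome 1, 4490931 to 4497354), which acts in arterial endothelium, and Sox18 (ENSMUSG00000046470, chromosome 2, 181669836 to 181671640), which acts in vascular and lymphatic development, were 1.66-fold and 2.02-fold higher in aorta. Their log2 differences were -0.73 (standard error 0.14, edgeR adjusted p = 9.33e-06) for Sox17 and -1.01 (standard error 0.16, edgeR adjusted p = 3.46e-07) for Sox18.

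Thus 9 of the 10 genes differed between the tissues in edgeR's quasi-likelihood test, where 86.5% of all 17514 genes tested did, so the count itself is close to the background. The groups of 20 libraries did not overlap for Pecam1, Vwf, Kdr and Emcn, nor for genes outside the 10 such as Cav1, Vegfa and Foxo1. The share of all genes without overlap was not computed, so that this is no trait of the 10. Each tissue was counted in a table of its own, so that tissue and table cannot be told apart. On the scale per length, Pecam1 stood above all others in aorta, followed by Eng, Vwf, Sox18, Tek and Tie1, whose neighbours lay within 1 SD of each other, then Sox17, Flt1, Emcn and Kdr. In kidney Eng stood first, Emcn, Pecam1, Tie1, Kdr, Tek, Sox18 and Flt1 followed with neighbours within 1 SD of each other, and Sox17 and Vwf came last, each apart from its neighbour by more than 1 SD.

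**Figure D1:**
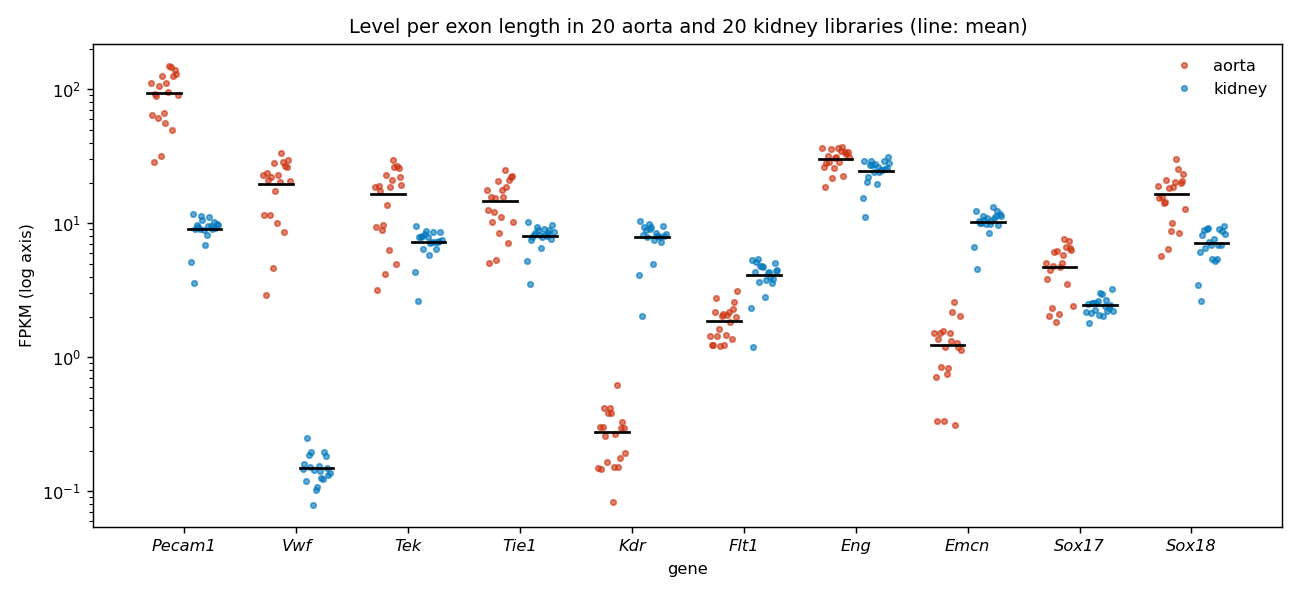
Level of each gene in FPKM (log axis) in 20 aorta and 20 kidney libraries, 1 point per library, with a line at the mean. FPKM were scaled within each tissue and not in the joint fit. Vwf and Pecam1 lie higher in aorta, Kdr and Emcn higher in kidney, and Eng at about the same level in both.

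Whether loss of endothelial EGFR changed these genes was asked first in aorta. Averaged over both diets, 9 of 10 log2 fold changes of KO against WT lay above 0, with a median of 0.46, where 51.3% of all 15122 genes tested lay above 0 with a median of 0.0052. None of the 10 was called in edgeR (0 of 10 at an adjusted p under 0.05, against 0.0198% of all genes), and 1 of 10, Sox17, had an unadjusted p under 0.05, where 8.78% of all genes did. The DESeq2 Wald test called 0 of 10 as well. Most of the 10 genes rose and fell together across libraries, as described below. Their signs are therefore not separate observations, here or in the sign counts that follow.

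For Pecam1, the values in FPM were 691, 401, 177, 571 and 549.8 in WT SFD, 381, 663, 199, 787 and 411 in WT HFD, 347, 693, 596, 929 and 912 in KO SFD and 307, 786, 873, 805 and 566 in KO HFD, in the order of library numbers R-1 to R-20. The 3 highest libraries were KO, but the KO libraries R-11 and R-16 lay below most WT libraries and the groups overlapped. The log2 fold change of KO against WT averaged over both diets was 0.50 (standard error 0.27, edgeR adjusted p = 0.642), with a 95% interval of -0.07 to 1.06. For Vwf it was 0.46 (standard error 0.35, edgeR adjusted p = 0.747), from 371 ± 143 FPM in KO SFD against 263 ± 144 FPM in WT SFD (SD, n = 5) and 359 ± 134 against 269 ± 147 FPM under HFD.

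Among the TIE receptors, Tek had the largest estimate of the 10. Its FPM were 87.9, 43.8, 14.9, 89.6 and 82.5 in WT SFD, 41.6, 45.7, 19.8, 108 and 64.5 in WT HFD, 29.7, 87.7, 99.6, 140.4 and 124 in KO SFD and 23.4, 125, 123, 105 and 91.2 in KO HFD. Of the 10 KO libraries, 8 had 87.7 FPM or more, and the other two, R-11 and R-16, had less than a WT median. The log2 fold change of Tek averaged over both diets was 0.67 (standard error 0.36, edgeR adjusted p = 0.638), with a 95% interval of -0.09 to 1.42. Tie1 followed with 0.47 (standard error 0.27, edgeR adjusted p = 0.66).

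The VEGF receptors and the co-receptor showed smaller estimates. Kdr was the single gene with an estimate below 0, -0.18 (standard error 0.31, edgeR adjusted p = 0.899), and its groups spanned 0.744 to 5.61 FPM in KO SFD alone. Flt1 gave 0.22 (standard error 0.18, edgeR adjusted p = 0.764), with -0.00 under SFD and 0.43 under HFD, and the interaction of genotype and diet was 0.44 (standard error 0.35, edgeR adjusted p = 1). Eng, the gene with the least spread in aorta, gave 0.18 (standard error 0.11, edgeR adjusted p = 0.698), and its 95% interval of -0.06 to 0.42 bounds the difference more tightly than for any other of the 10. Emcn, at 1.69 to 14.01 FPM over all aorta libraries, gave 0.48 (standard error 0.33, edgeR adjusted p = 0.712).

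Of the SOXF factors, Sox17 had FPM of 24.1, 18.4, 9.62, 21.3 and 11.02 in WT SFD, 22.8, 28.9, 8.69, 29.8 and 10.0 in WT HFD, 22.6, 24.2, 27.5, 36.4 and 31.6 in KO SFD and 16.8, 35.2, 31.2, 30.3 and 11.5 in KO HFD. Under SFD, 4 of 5 KO libraries lay above the highest WT library, R-1, and the lowest of these 4 was R-12, its near-identical partner, while under HFD the genotypes were mixed. The log2 fold change was 0.75 under SFD (unadjusted p = 0.0498 and adjusted p = 1 in edgeR) and 0.32 under HFD. Averaged over both diets it was 0.53 (standard error 0.25, edgeR adjusted p = 0.565). Sox18 gave 0.44 (standard error 0.25, edgeR adjusted p = 0.668).

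Under SFD alone, 8 of 10 estimates of KO against WT lay above 0 with a median of 0.53, and under HFD 9 of 10 with a median of 0.38. In both comparisons 0 of 10 genes were called, where 0% of all genes were, by edgeR and by the DESeq2 Wald test, and at an unadjusted p under 0.05 there was 1 under SFD (Sox17) and 0 under HFD. The interaction of genotype and diet called 0 of 10, where 0% of all genes were called, and 0 of 10 reached an unadjusted p under 0.05, with 0 of 10 called by the DESeq2 Wald test. Without R-1 and R-12, the averaged estimates moved little, to 0.58 for Pecam1, 0.75 for Tek and 0.64 for Sox17, and 0 of 10 were called.

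**Figure D2:**
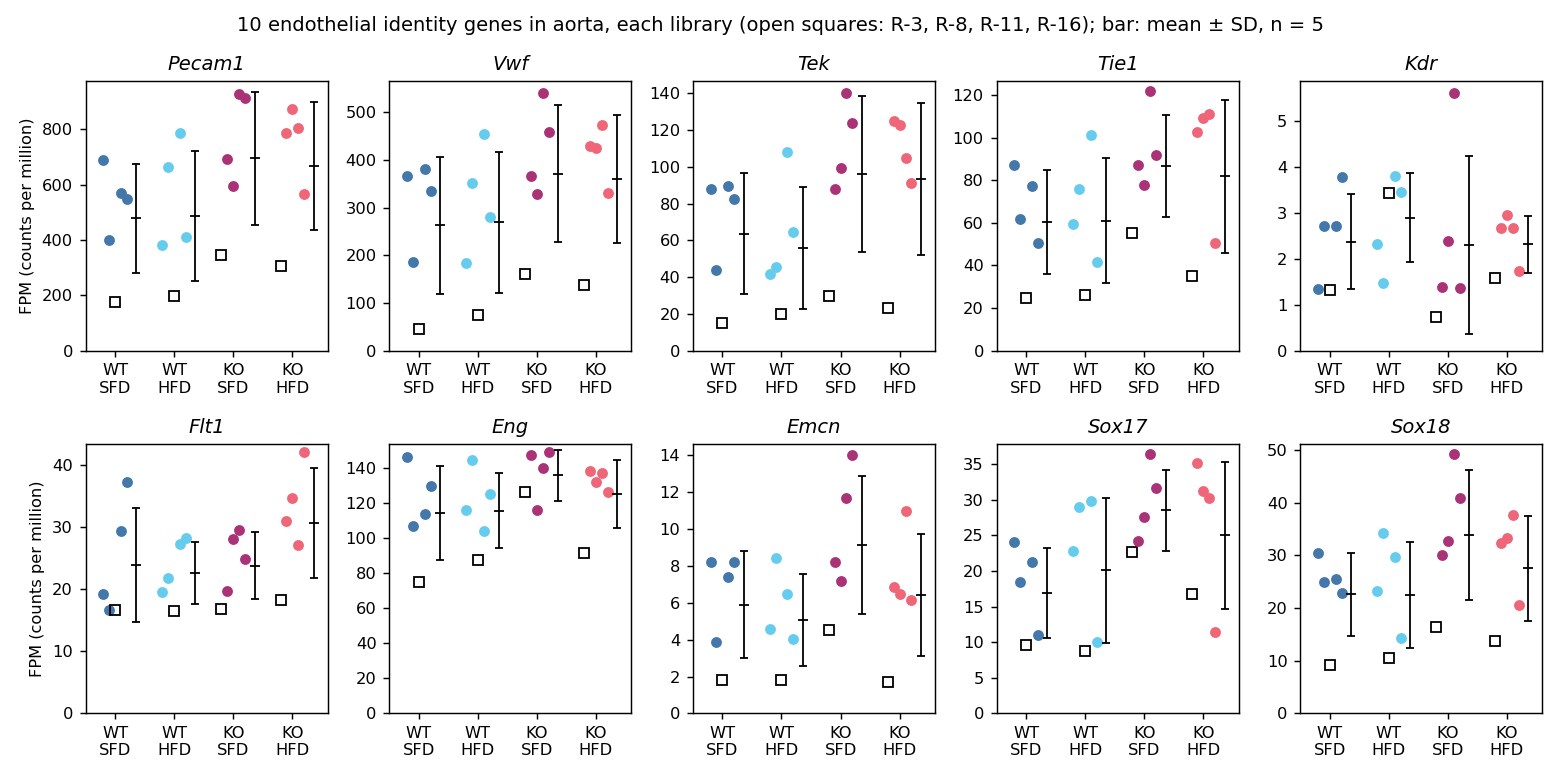
FPM of the 10 genes in aorta, 1 point per library, by genotype and diet, with the mean ± SD (n = 5) at the right of each group. Open squares mark R-3, R-8, R-11 and R-16, 1 library of each group, which are the 4 lowest for Pecam1, Vwf and Tek.

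In each group, 1 library was low in 5 or more of the 10 genes at once. R-3 (WT SFD) was among the 4 lowest libraries for 10 of 10 genes, R-8 (WT HFD) for 9, R-16 (KO HFD) for 7 and R-11 (KO SFD) for 5. Between the highest and the lowest of all 20 libraries, Vwf differed 11.6-fold and Tek 9.42-fold, but Eng only 1.99-fold and Flt1 2.55-fold. R-11 and R-16 also stood apart in lymphoid markers, with scores of 3.48 and 3.94 above the mean of all aorta libraries on the log2 scale, where the other 18 lay between -1.68 and 1.25, and 7 of the 8 lymphoid markers were detected (Cd3g was at 0). Without these libraries, the log2 fold changes of KO against WT averaged over both diets rose to 0.70 for Pecam1 and 0.93 for Tek (edgeR adjusted p = 0.235 and 0.226), and still 0 of 10 were called. Both of these libraries were low and KO, so that leaving them out could only raise the KO means of Pecam1 and Tek. Leaving out R-3, the low WT SFD library, lowered the estimates to 0.39 for Pecam1 and 0.54 for Tek, and leaving out R-8, the low WT HFD library, to 0.40 and 0.56 (0 of 10 called in both). For Tek under SFD the estimate was 0.34 without R-3, against 0.59 with all libraries. The first principal component of all genes tested put 6 of 10 WT but 3 of 10 KO libraries on 1 side. With that side as a term in the fit, the same estimates were 0.27 for Pecam1, 0.28 for Tek, 0.29 for Tie1 and 0.45 for Sox17. The component was computed from genes that include the 10, so this term is not independent of their levels. Adipocyte markers, all 8 detected, summed to 701 to 1040 FPM in WT SFD and to 541 to 868 FPM in the other 3 groups. With the adipocyte score as a covariate Pecam1 gave 0.46 and Tek 0.57. The part of these cells in the genotype estimates was not tested further.

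Across the 18 aorta libraries without the near-identical pair, 6 of the genes moved as a block. The Pearson correlation of a gene's log2 FPM with the mean of the other 9 was 0.98 for Pecam1, 0.97 for Vwf, 0.95 for Tek, 0.93 for Tie1, 0.93 for Sox18 and 0.91 for Emcn, and Spearman's rho lay between 0.81 and 0.96 for these 6. Eng had 0.80 (rho 0.67), Sox17 0.69 (rho 0.82), Flt1 0.66 (rho 0.56) and Kdr 0.31 (rho 0.29). These points share library, depth and tissue piece, and the values are a description. Leaving out the 2 libraries farthest from the median left 0.85 to 0.96 for the 6 genes of the block, and lowered Eng to 0.58, Flt1 to 0.51 and Sox17 to 0.49. Sox17 and Flt1 departed from the block in opposite ways in R-5, R-10 and R-20, which had Sox17 of 11.02, 10.0 and 11.5 FPM, among the 5 lowest, but Flt1 of 37.3, 28.2 and 42.0 FPM, among the 7 highest. The pair Sox17 and Flt1 had r = 0.19.

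Arterial endothelial markers followed the 10 genes, with r = 0.98 (7 of 8 markers detected, Bmx at 0), whereas venous and capillary markers did not, with r = -0.30 and -0.26. Smooth muscle markers ran against them, with r = -0.67 (rho -0.76, 5 of 6 detected, Cnn1 at 0). Outside the 10, the genes most alike in pattern were Mmrn2 (r = 0.981), Megf6 (r = 0.979), Kif26a (r = 0.978), Enpp6 (r = 0.975) and Cadps2 (r = 0.975), all over the same 18 libraries.

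**Figure D3:**
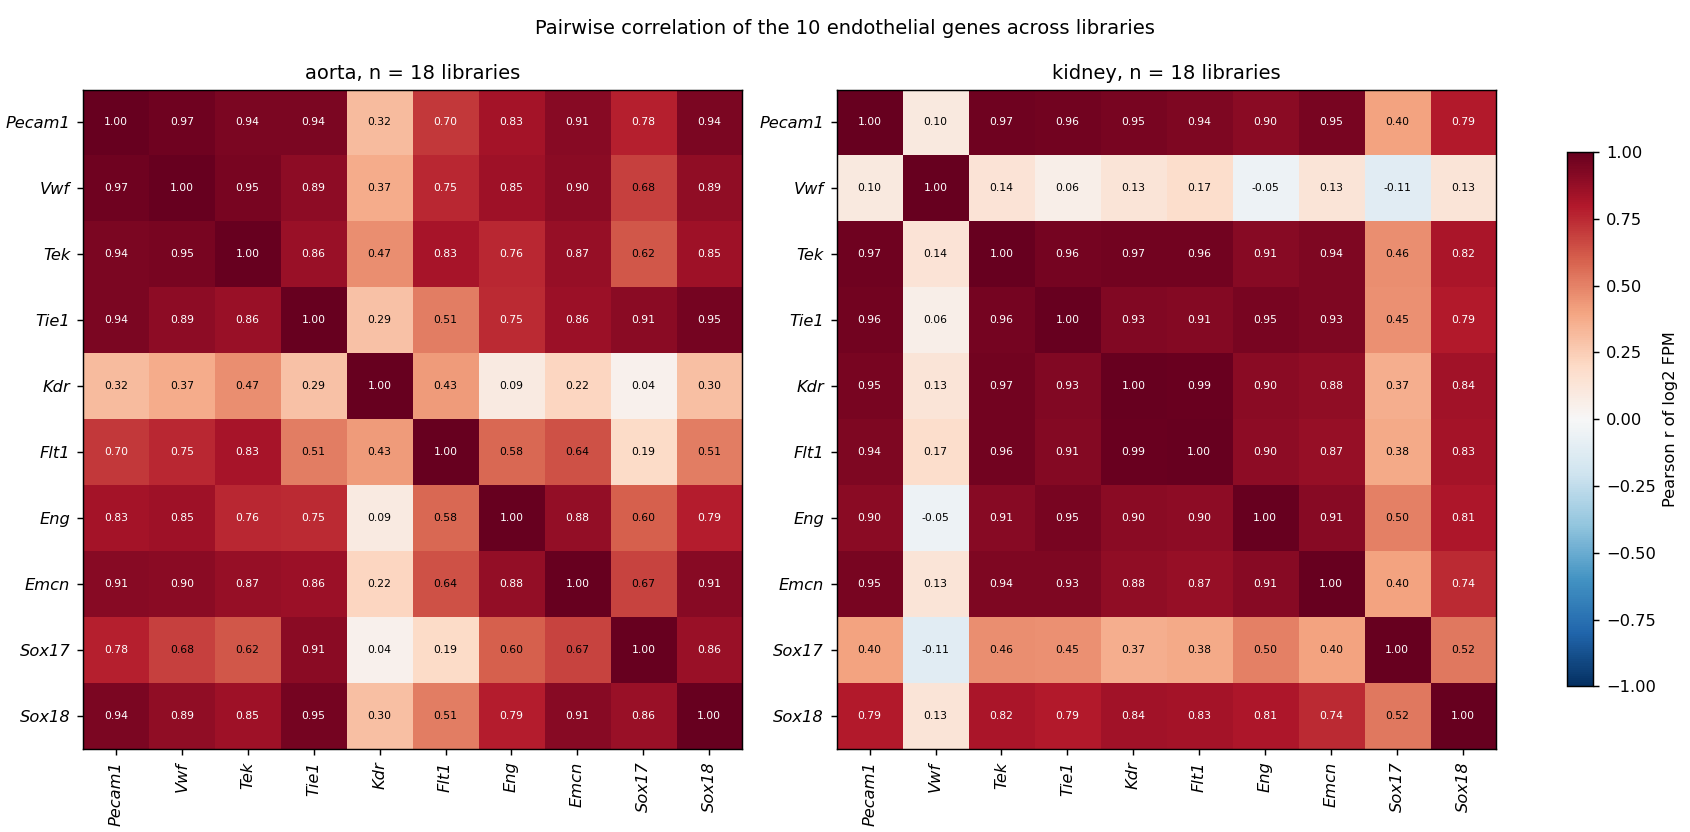
Pearson correlation of log2 FPM between each pair of the 10 genes over 18 aorta and 18 kidney libraries, with the near-identical libraries left out and colour from -1 to 1. In aorta Kdr stands apart from the other 9, and in kidney Vwf and Sox17 do.

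Diet left these genes nearly even in aorta. Averaged over both genotypes, the log2 fold changes of HFD against SFD ran from -0.36 for Emcn to 0.16 for Kdr, with a median of -0.03, and 3 of 10 lay above 0. In edgeR 0 of 10 were called, against 0.0529% of all genes, and 0 of 10 had an unadjusted p under 0.05. Pecam1, at -0.01, had a 95% interval of -0.58 to 0.55, so that changes of about this size either way were not detectable with this spread. Eng, at -0.05, had an interval of -0.29 to 0.19. Within WT, 0 of 10 were called for HFD against SFD, where 0.0132% of all genes were, and within KO 0 of 10, where 0% were. The DESeq2 Wald test called 0 of 10 in each of these 3 comparisons, and none had an unadjusted p under 0.05 within either genotype.

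Genes that work with the 10 were taken from lists of their pathways, and in aorta 0 of them were called in any of the 7 comparisons. Among 8 angiopoietin and TIE partners, 6 of 8 estimates of KO against WT averaged over both diets lay above 0, with Ptprb, the phosphatase that restrains Tek, at 0.58 (standard error 0.40, edgeR adjusted p = 0.715). Among 6 measured VEGF ligands and receptors 3 lay above 0, with the ligand Vegfb at -0.20 (standard error 0.09, edgeR adjusted p = 0.532). That list held 7 genes, but Nrp1 was at 0 counts in both tissues and could not be examined. Of 9 tested genes of the endoglin and BMP9 pathway all 9 lay above 0, among them the inhibitory Smad7 at 0.39 (standard error 0.18, edgeR adjusted p = 0.553). Of 11 SOXF partners and Notch genes, 10 lay above 0, and the SOXF factor Sox7 had 0.82 (standard error 0.30, edgeR adjusted p = 0.463). Of 24 further pan-endothelial genes, 6 were at 0 counts (Cdh5, Esam, Ets1, Fli1, Mcam and Robo4) and 16 of the remaining 18 lay above 0 with a median of 0.36, among them Nos3, the endothelial nitric oxide synthase, at 0.63 (standard error 0.25, edgeR adjusted p = 0.498) and Icam2 at 0.61 (standard error 0.25, edgeR adjusted p = 0.499). In these 5 lists, in the same order, 0, 1, 1, 2 and 2 genes had an unadjusted p under 0.05. With HFD averaged over both genotypes, 2 of 8, 3 of 6, 6 of 9, 9 of 11 and 10 of 18 lay above 0. All of these genes were measured in the same libraries as the 10.

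In kidney, the estimates for genotype were closer to 0 than in aorta for 10 of 10 genes, a difference that was not tested. Averaged over both diets, the log2 fold changes of KO against WT ran from -0.08 for Vwf to 0.18 for Emcn, with a median of 0.09, and 7 of 10 lay above 0, where 49.6% of all 15943 genes did. In edgeR 0 of 10 were called, where 0% of all genes were, and 0 of 10 had an unadjusted p under 0.05. Tek, whose promoter drives the Cre, gave 0.03 (standard error 0.16, edgeR adjusted p = 0.973), with a 95% interval of -0.30 to 0.37. Kdr gave -0.01 (standard error 0.21, edgeR adjusted p = 0.996), Flt1 -0.04 and Sox17 0.14. Under SFD alone the median was 0.19 with 9 of 10 above 0, and under HFD 0.02 with 6 of 10 above 0, and in both 0 of 10 were called where 0% of all genes were, with 0 of 10 at an unadjusted p under 0.05. The DESeq2 Wald test called 0 of 10 in all 3 comparisons of genotype.

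The SFD estimates rested on WT libraries a16 and a18. Kdr had 36.8, 93.9, 18.2, 74.3 and 85.2 FPM in WT SFD (a16 to a20), 80.6, 71.1, 88.8, 82.4 and 84.3 in WT HFD (a11 to a15), 45.1, 68.0, 76.1, 72.9 and 73.0 in KO SFD (a6 to a10) and 71.0, 65.0, 86.3, 72.3 and 75.4 in KO HFD (a1 to a5). The 2 lowest of these 20 values were a18 and a16, the next was a6 of KO SFD, and the remaining libraries lay between 65.0 and 93.9 FPM. Over the 10 genes, a18 was among the 4 lowest libraries for 10, a6 for 9 and a16 for 8. Podocyte markers, chosen for the epithelial cells of the glomerulus and all detected, were low in a18 and a16 too. Their summed levels began at 91.2 FPM in WT SFD, where the other 3 groups spanned 214 to 312 FPM. Their scores were -1.52 in a18 and -0.43 in a16, but no lower than -0.17 in KO SFD, the group of a6. Podxl, 1 of these 5 markers, also stands in the list of pan-endothelial genes. On the scale of the joint fit of both tissues it averaged 151 FPM in kidney and 78.8 FPM in aorta. The podocyte values may thus in part reflect endothelial RNA. Without a16 and a18, 7 of 10 SFD estimates of KO against WT turned below 0, such as Flt1 at -0.35 and Kdr at -0.31 (edgeR adjusted p = 0.445 and 0.445), and 0 of 10 were called. Averaged over both diets, Flt1 was then -0.24 and Kdr -0.22 (edgeR adjusted p = 0.186 and 0.189). Between the highest and the lowest of all 20 kidney libraries, Kdr differed 5.15-fold and Flt1 4.55-fold, but Sox17 only 1.78-fold. The part of glomerular content in these estimates was not tested.

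**Figure D4:**
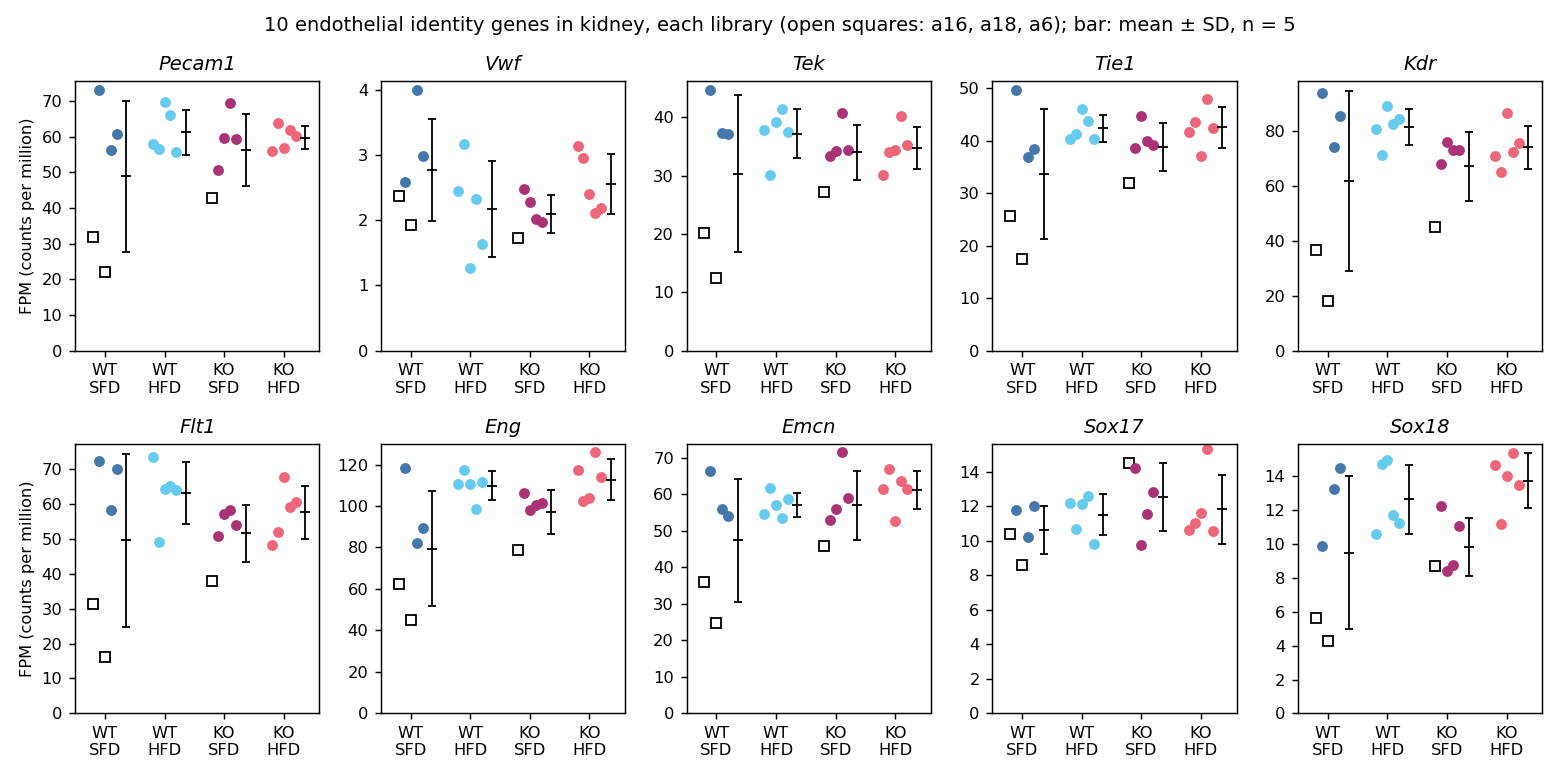
FPM of the 10 genes in kidney, 1 point per library, by genotype and diet, with the mean ± SD (n = 5) at the right of each group. Open squares mark a16 and a18 of WT SFD and a6 of KO SFD, which lie lowest for Kdr, Flt1 and Tie1 but not for Vwf.

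With HFD, the kidney estimates leaned upwards, and Eng and Sox18 came closest to a call. Averaged over both genotypes, 9 of 10 log2 fold changes lay above 0 with a median of 0.22, where 49.8% of all genes lay above 0. In edgeR 0 of 10 were called, against 16.4% of all genes, and 2 of 10, Eng and Sox18, had an unadjusted p under 0.05, where 29.9% of all genes did. The DESeq2 Wald test called 2, the same 2 genes.

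Eng had 62.4, 118, 45.2, 82.0 and 89.3 FPM in WT SFD, 111, 117, 111, 98.3 and 112 in WT HFD, 78.8, 106, 98.0, 101 and 101 in KO SFD and 118, 102, 104, 126 and 114 in KO HFD. Only a17 of the WT SFD libraries reached the range of WT HFD, and in KO the diets overlapped. The log2 fold change averaged over both genotypes was 0.34 (standard error 0.12, edgeR adjusted p = 0.0509), with a 95% interval of 0.10 to 0.59, and it was 0.47 in WT and 0.22 in KO (adjusted p = 0.107 and 0.511). Eng was called by the DESeq2 Wald test (adjusted p = 0.0265) and in 5 of 20 edgeR fits that left out 1 library, with the lowest adjusted p, 0.00347, without a17. Without a16 and a18 its estimate was 0.22 (edgeR adjusted p = 0.0632), and without a1 and a12 it was 0.32 (edgeR adjusted p = 0.104).

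Sox18 had 5.62, 9.88, 4.29, 13.2 and 14.5 FPM in WT SFD, 10.6, 14.7, 14.97, 11.7 and 11.2 in WT HFD, 8.71, 12.3, 8.43, 8.78 and 11.1 in KO SFD and 14.7, 11.2, 14.05, 15.4 and 13.5 in KO HFD. In KO only a7 of SFD reached the HFD range, whereas in WT the diets overlapped through a19 and a20. The log2 fold change averaged over both genotypes was 0.45 (standard error 0.17, edgeR adjusted p = 0.0795), and 0.48 in KO with an unadjusted p = 0.0608 in edgeR. The estimate was 0.26 without a16 and a18 and 0.40 without a1 and a12 (edgeR adjusted p = 0.109 and 0.158).

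The other 8 genes gave smaller estimates for diet. Kdr gave 0.27 (standard error 0.21, edgeR adjusted p = 0.406), Flt1 0.25, Tie1 0.23, Pecam1 0.20, Emcn 0.18 and Tek 0.16. Without a16 and a18 these 6 estimates were 0.06, 0.05, 0.09, 0.03, 0.04 and -0.02, in the same order. Sox17 stayed at 0.01 with a 95% interval of -0.18 to 0.20. Vwf, at 1.27 to 3.99 FPM and 33 to 150 counts per library, gave -0.03. It was -0.34 in WT and 0.29 in KO, and this interaction of genotype and diet, 0.63 (standard error 0.32, edgeR adjusted p = 1), had the smallest unadjusted p of the 20 interaction tests, 0.0632. The interaction called 0 of 10 in kidney, where 0% of all genes were called, and 0 of 10 had an unadjusted p under 0.05, with 0 of 10 called by the DESeq2 Wald test.

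Within WT, HFD against SFD called 0 of 10, where 6.71% of all genes were called, and 1 of 10, Eng, had an unadjusted p under 0.05, where 19.4% of all genes did. Within KO it called 0 of 10, where 6.34% of all genes were called, with 0 of 10 at an unadjusted p under 0.05. The DESeq2 Wald test called 0 of 10 in both. Without a16 and a18, which are WT libraries, Sox18 was called within KO, at 0.49 (edgeR adjusted p = 0.042).

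**Figure D5:**
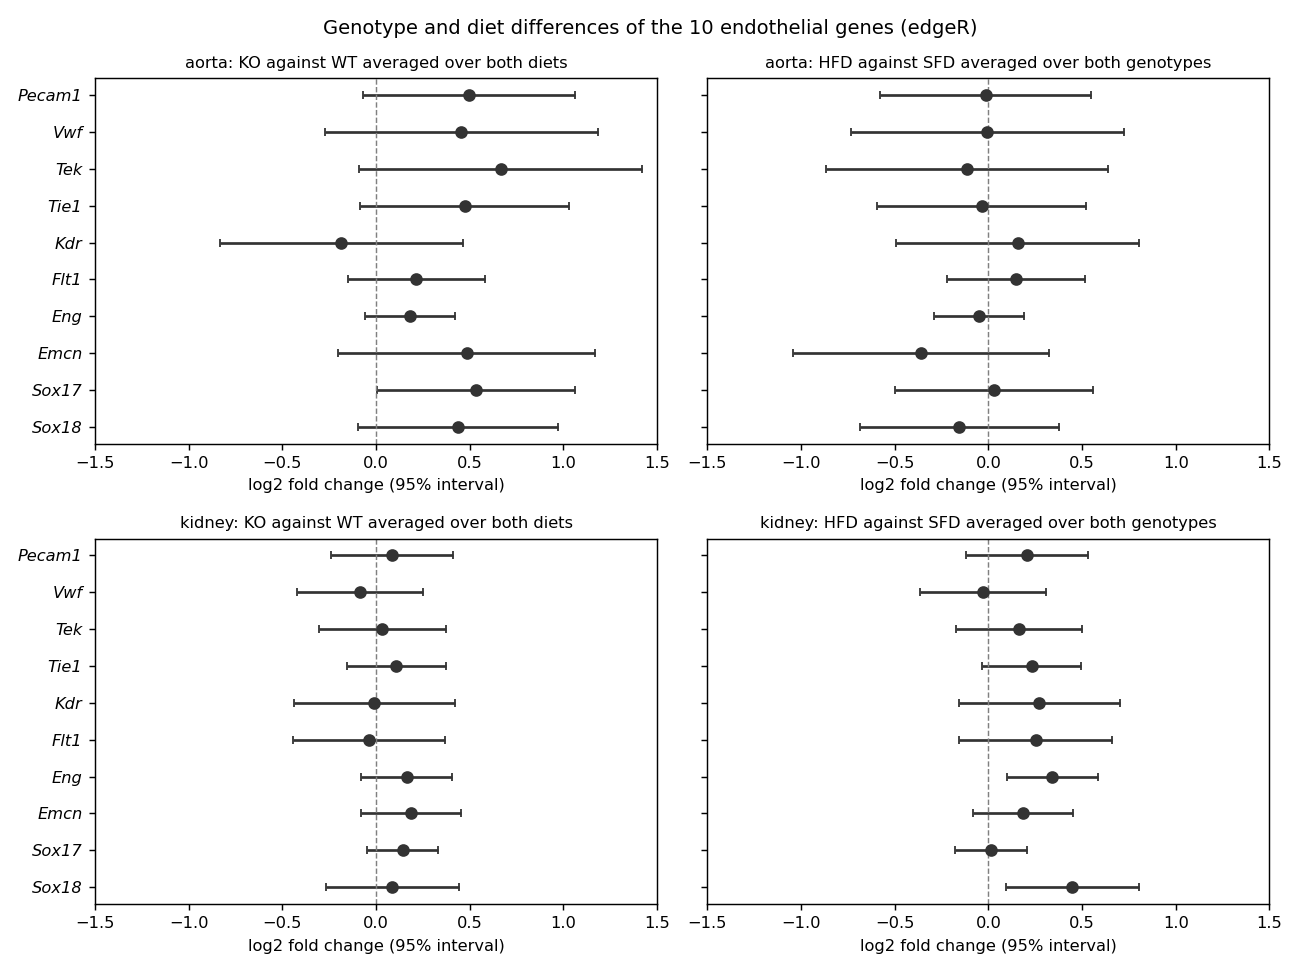
Log2 fold change of each of the 10 genes with its 95% interval from edgeR, for genotype (left) and diet (right) in aorta (top) and kidney (bottom), with a dashed line at 0. The intervals are narrower in kidney for 8 of the 10 genes, all but Eng and Flt1, and those of Eng and Sox18 for diet in kidney lie above 0.

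In kidney 7 of the genes moved as a block across the 18 libraries without a1 and a12, and Vwf did not belong to it. The correlation with the mean of the other 9 lay between 0.91 and 0.98 for Pecam1, Tek, Tie1, Kdr, Flt1, Eng and Emcn, at 0.84 for Sox18, at 0.43 for Sox17 and at 0.08 for Vwf. It depended on a16 and a18, since without these 2, the farthest from the median, it fell to between 0.45 and 0.79 for the 7 genes, and rho lay between 0.32 and 0.69 with all 18. Podocyte markers correlated with the 10 genes at r = 0.92 (rho 0.59) and glomerular endothelial markers at r = 0.79 (rho 0.57), and lymphoid markers did so too, at r = 0.82 (rho 0.62, 7 of 8 detected, Cd3g at 0). Arterial endothelial, pan-leukocyte, smooth muscle, venous and lymphatic markers had r = 0.84, 0.73, 0.70, 0.69 and 0.61. Capillary markers had r = 0.42, adipocyte markers 0.23, platelet markers 0.31, proximal tubule markers 0.10 and red blood cell markers -0.31. The pattern was thus not particular to glomerular markers. The genes most alike in pattern were Plpp1 (r = 0.974), Npr1 (r = 0.969), Meis2 (r = 0.956), Tmem204 (r = 0.955) and She (r = 0.948). With the podocyte score as a covariate, the diet estimates were 0.20 for Eng, 0.27 for Sox18, 0.01 for Kdr and -0.04 for Tek. Because the podocyte list includes the pan-endothelial gene Podxl, neither its correlation nor this covariate is independent of endothelial RNA.

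Among the genes that work with the 10, HFD averaged over both genotypes called 5 of 51 tested in kidney, or 9.80%, all higher with HFD, where 16.4% of all genes were called, so that their share was no higher than the background. Ptprb stands in 2 of the lists and is counted once here. The genes of these lists and the vessel-bed markers below were not refitted without a16 and a18. Whether their calls rest on these libraries was not tested. Of 8 angiopoietin and TIE partners 1 rose, Angpt1, the ligand that activates Tek, with 0.44 (standard error 0.14, edgeR adjusted p = 0.037), while Angpt2, its context-dependent antagonist, gave -0.61 (standard error 0.27, edgeR adjusted p = 0.135). Of 9 tested genes of the endoglin and BMP9 pathway 1 rose, Smad5, a transcription factor downstream of BMP receptors, with 0.16 (standard error 0.05, edgeR adjusted p = 0.0338), and the BMP target Id3 gave 0.45 (standard error 0.17, edgeR adjusted p = 0.0706). Of 11 SOXF partners and Notch genes 1 rose, the Notch target Hey1, with 0.68 (standard error 0.17, edgeR adjusted p = 0.00841) at 1.32 against 0.825 FPM. Within WT, the Notch ligand Dll4 rose, with 0.48 (standard error 0.14, edgeR adjusted p = 0.0355), and its diets did not overlap. It was the only 1 of the 51 called within WT, where 6.71% of all genes were. Of 18 tested pan-endothelial genes 2 rose, Icam2 with 0.36 (standard error 0.10, edgeR adjusted p = 0.0214) and the transcription factor Lyl1 with 0.39 (standard error 0.13, edgeR adjusted p = 0.0492), with 15 of 18 above 0 and a median of 0.21. In the other 4 lists 3 of 8, 5 of 6, 7 of 9 and 9 of 11 lay above 0 in kidney with HFD, angiopoietin first, then VEGF, endoglin and Notch. None of the 6 measured VEGF ligands and receptors was called, with the ligand Pgf at 0.55 (standard error 0.28, edgeR adjusted p = 0.198) and the co-receptor Nrp2 at 0.24 (standard error 0.18, edgeR adjusted p = 0.406). For genotype averaged over both diets 0 genes of these lists were called in kidney, and 17 of 18 pan-endothelial genes lay above 0 with a median of 0.09, against 2 of 8, 4 of 6, 4 of 9 and 6 of 11 in the other lists. At an unadjusted p under 0.05 there were 3 pan-endothelial genes, 1 of the angiopoietin list, 1 of the endoglin list and 0 of the others, with the smallest unadjusted p for the junction gene Cldn5, 0.29 (standard error 0.10, edgeR adjusted p = 0.802). Vessel-bed markers, some of which also stand in these lists, were described after their values were seen. Of these, 3 of 6 capillary markers fell with HFD, Cd36 by 0.72, Aqp7 by 0.40 and Car4 by 0.45 on the log2 scale (edgeR adjusted p = 4.51e-09, 7.23e-05 and 0.000528), genes that kidney tubule cells are known to express too. The other 3, Gpihbp1, Plvap and Rgcc, gave 0.27, 0.19 and 0.10 and were not called. Of 4 glomerular endothelial markers 2 rose, Sost with 0.99 (standard error 0.31, edgeR adjusted p = 0.0321) and Pi16 with 0.60 (standard error 0.15, edgeR adjusted p = 0.011). Sost stood at only 1.06 FPM with HFD against 0.543 FPM with SFD, and Ehd3 and Fbln5 were not called. Of 3 venous markers 1 rose, Aplnr with 0.50 (standard error 0.16, edgeR adjusted p = 0.0391), while Nr2f2 and Ephb4 were not called. Among the arterial markers only Hey1, given above with the Notch genes, was called, and none of the lymphatic markers was. Over all genes, 16.4% were called in this comparison.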

How the data were processed

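RNA was sequenced in 20 libraries labelled as aorta and 20 as kidney, 5 per genotype and diet. The labels do not say that each library came from a mouse of its own, and p-values measure the spread between these libraries. The authors deposited 1 table of raw counts per gene for each tissue. The submitters' processing notes name HISAT2 2.1.0, featureCounts and the mm10 build, whereas the methods of the study name TopHat2. The strand setting of the counting is not given in the sources used here, so that reads of overlapping antisense genes may be included. Counts were fitted per tissue with edgeR 4.0.16 in R 4.3.3 (limma 3.58.1), with TMM factors, filterByExpr by group and the robust quasi-likelihood test, over all 4 groups. The comparison of the tissues used 1 joint fit of 40 libraries. A gene was called at a Benjamini-Hochberg adjusted p under 0.05 over all genes tested, and all tests were two-sided. FPM are CPM on the TMM-scaled library size, and FPKM divide them by the union of GENCODE exons in kilobases. Both were scaled per tissue, except where the joint fit is named. Correlations used edgeR's log2 CPM on the TMM-scaled library size, with a prior of 0.5 counts scaled to that size. Marker scores are means of these log2 values centred over the libraries of a tissue. The scripts were tested on simulated data.

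The named genes were the 10, Egfr, the called genes of each pathway list and the 5 most alike in pattern. Of the 2 genes with the smallest unadjusted p per pathway list and averaged comparison, some were named. Others, such as Dok2 and Vegfc in aorta, were not. Members and lists were chosen with earlier results of these data known. Each comparison was repeated with DESeq2 1.42.0 size factors and its Wald test, other filters, no robust estimation, only the groups compared, leaving out each library or the near-identical pairs, and an adipocyte covariate in aorta. After seeing the data, fits with a principal component term, a podocyte covariate, and without R-11 and R-16 or a16 and a18 were added.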

Additional observations from a re-analysis of the deposited data

Results flagged for a closer look

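Of 80 groups of 5 libraries of the 10 genes, 3 held a library far from the other 4 by Dixon's criterion, where chance alone flags about 1 in 20 groups, which comes to 4. Eng in aorta of KO HFD was low in R-16, with 91.4 FPM against 126 FPM in the nearest library. Kdr in kidney of KO SFD was low in a6, with 45.1 FPM, where the other 4 began at 68.0 FPM. Sox17 in kidney of KO HFD was high in a4, with 15.3 FPM against 11.6 FPM in the nearest library.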

How the results depend on the processing

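Over all alternatives, 3960 fold changes of the 10 genes were recomputed, of which 3928 kept their direction and their side of the threshold or changed sign within 1 standard error of 0, 15 became called, 0 lost a call and 17 turned in direction. The count of genes called between the tissues was 9 under all alternatives. In aorta the counts were 0 under every alternative run, as they were in kidney for genotype and the interaction. For HFD against SFD averaged over both genotypes in kidney, the count rose from 0 to 1 with DESeq2 size factors, 2 with the DESeq2 Wald test and 1 with a mean CPM of at least 1, and was 0 to 2 when 1 library was left out. Within WT it was 0 to 1 when 1 library was left out, the 1 being Eng without a17. Within KO it was 1, Sox18, with only the groups compared and 1 without a16 and a18.

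Without a16 and a18, KO against WT under SFD in kidney turned to -0.15 for Pecam1, -0.20 for Tek, -0.084 for Tie1, -0.31 for Kdr, -0.35 for Flt1, -0.025 for Emcn and -0.33 for Sox18, and averaged over both diets to -0.090 for Pecam1 and -0.15 for Tek. HFD against SFD in WT turned to -0.032 for Pecam1, -0.076 for Tek, -0.034 for Kdr, -0.063 for Flt1 and -0.023 for Emcn, and averaged over both genotypes to -0.018 for Tek. With the podocyte covariate, HFD averaged over both genotypes in kidney turned to -0.037 for Tek and -0.0020 for Flt1. The podocyte list includes Podxl, which is also in the pan-endothelial list. The cause was not tested. No paired analysis was possible because the labels number the libraries through all groups and share no replicate numbers between them. Depth limits Kdr in aorta and Vwf in kidney, the genes with the fewest counts.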
